A study of Drosophila melanogaster with 24 samples.

Results

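The 2 groups of adult *Drosophila melanogaster* described here had each received gut microbiota from the opposite kind of donor: PWFC flies were rotenone-treated flies given control microbiota, and CWFP flies were untreated flies given microbiota of rotenone-treated flies. They were picked by their labels and account for 6 of the 18 libraries of the count table, 3 per group. PWFC flies of the strain w1118 had been fed for 7 days with rotenone, an inhibitor of mitochondrial complex I used to model Parkinson's disease, and were then fed for 7 days with ground gut content of control flies. CWFP flies of the same strain had passed the first 7 days on medium with the DMSO vehicle and were then fed for 7 days with ground gut content of rotenone-fed flies. Both groups were sampled 21 days after eclosion (experimental day 14), and the libraries were made from polyadenylated RNA of whole flies. The groups therefore differed both in their rotenone history and in the donor of the microbiota, and these cannot be told apart in this pair. The labels name 250 µM rotenone in the protocol of every group, and the groups were taken from each sample's own treatment label. PWOFC and CWOFP of day 14, set beside this pair where stated, had the same history without a transfer: PWOFC after rotenone and CWOFP after vehicle. The study calls the replicates biological, but no label says that they came from separate cultures, so the p-values measure the spread between these libraries, part of which may be technical.

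Several of the gene groups compared here belong to tissues that contribute differently to a whole fly. The midgut of the fly secretes serine proteases of the Jonah and trypsin families, amylases, maltases and lipases, and a chitin-lined peritrophic matrix separates food and microbes from the epithelium. In the compound eye, light isomerises the chromophore of a rhodopsin, a G protein then activates phospholipase C, and the channels TRP and TRPL open, after which arrestins stop the signal. Metallothioneins bind copper, zinc and other metals, and their transcription depends on the metal-responsive factor MTF-1. In whole-body RNA fewer cells of a type and less RNA per cell cannot be told apart.

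The 6 libraries held between 20097950 and 22958881 counts, within the 17920498 to 29165130 of all 18 libraries. CWFP replicate 1 stood apart from the other libraries. Genes of the accessory gland, a male organ, summed to 447 to 1385 counts per 1000000 counts of the library (CPM) in PWFC and to 2215 and 2710 CPM in CWFP replicates 2 and 3, but to 81.6 CPM in CWFP replicate 1. Testis genes summed to 145.4 to 871.7 CPM in PWFC, to 1197 and 1759 CPM in CWFP replicates 2 and 3 and to 46.3 CPM in CWFP replicate 1, and the *roX* RNAs, which coat the X chromosome of males, to 14.9 CPM in that library, the lowest of the 6. On the first principal component of the 500 most variable genes, which held 82.0% of their variance, CWFP replicate 1 lay at -77.8 and the other 5 libraries between -26.6 and 56.2. The tests and list medians are therefore given with this library and without it, single genes with all 6 libraries except where the value without it is printed, and none of the 94 named genes turned its direction without it. CWFP replicate 3 stood apart in another way, with 294.2 CPM of summed eggshell chorion genes against 4341 to 14210 CPM in the other 5 libraries. Its summed ovarian germline genes, at 2641 CPM, lay within the 2081 to 4525 CPM of those libraries. The study's methods describe bottles with males and females in equal number, and its discussion says that its experiments used as many males as females. It adds that RNA levels could lean toward female flies. An equal mix of sexes is also named for RNA sequencing, but at an age other than that of these groups. No label states the sex of the flies in each library. The part of these male and female genes in the other results was not tested beyond the covariate fits given with them.

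Across all genes the 2 recipient groups were not separated beyond the spread between libraries. In the fit of edgeR's quasi-likelihood test on the 6 libraries, none of 12240 genes (0%) was called, where a call required a Benjamini-Hochberg adjusted p below 0.05 and a log2 fold change beyond 1 in either direction. At an unadjusted p below 0.05 there were 300 genes (2.45%), of which 186 (1.52%) were higher and 114 (0.931%) lower in PWFC, and the smallest adjusted p was 0.129. Without CWFP replicate 1 again none of 12581 genes (0%) was called, with a smallest adjusted p of 0.0872 and 2169 genes (17.2%) at an unadjusted p below 0.05. Of these, 637 (5.06%) were higher and 1532 (12.2%) lower in PWFC. The biological coefficient of variation was 0.343 without this library and 0.541 with it. The mean distance between libraries of different groups was 69.0 on the log2 CPM scale of the 500 most variable genes and that between libraries of the same group 69.2 (one-sided exact permutation test, p = 0.5, where 0.1 is the smallest value that 3 against 3 libraries allow). The 3 PWFC libraries were 41.2 apart on average and the 3 CWFP libraries 97.1. Without CWFP replicate 1 the libraries of different groups were farther apart than those of the same group by 22.3 (exact permutation p = 0.2).

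Other tools called some genes on the same counts. DESeq2 called 54 of 15803 genes (0.342%), 52 of them higher (0.329%) and 2 lower (0.0127%) in PWFC, and 451 of 12718 (3.55%) without CWFP replicate 1, 116 higher (0.912%) and 335 lower (2.63%). Of its 54 genes, 53 were also among the 451, and for 51 of them the PWFC and CWFP libraries did not overlap. With sample quality weights limma's voom called 1153 genes (9.42%), 139 higher (1.14%) and 1014 lower (8.28%), after giving CWFP replicate 1 a weight of 0.0997 and PWFC replicate 3 a weight of 10.1. In 873 genes (7.13%) every PWFC library lay on one side of every CWFP library, 439 (3.59%) above and 434 (3.55%) below, and without CWFP replicate 1 in 5089 of the same genes (41.6%), 1998 (16.3%) above and 3091 (25.3%) below. This split depended on the scaling, since library factors estimated over all 18 libraries gave 705 genes above (5.76%) and 235 below (1.92%). The fits of 5 libraries also turned on PWFC replicate 1: leaving it out together with CWFP replicate 1 gave 2644 called genes, whereas leaving out PWFC replicate 2 or 3 gave 13 or 2. The log2 fold change was above 0 for 5301 genes (43.3%) and below 0 for 6939 (56.7%), with a median over all genes of -0.04, and 0.01 without CWFP replicate 1.

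Genes of light detection in the eye had, together with the 4 Turandot genes, the largest median difference of the lists examined with all 6 libraries. When CWFP replicate 1 was left out, the chorion list (2.43) and the 2 larval serum genes (2.55) lay higher. All 17 phototransduction genes tested were higher in PWFC, *rdgB* with a direction that turned when CWFP replicate 2 or PWFC replicate 2 was left out. Their median log2 fold change was 2.31 (2.33 without CWFP replicate 1). In 14 of them (82.4%, against 3.59% of all genes) every PWFC library lay above every CWFP library. An unadjusted p below 0.05 was found for 12 (against 1.52% of all genes on this side). DESeq2 called 11 (against 0.329% of all genes on this side), while edgeR called none. The summed level of the list was 1138, 1864 and 2483 CPM in PWFC and 391, 334.9 and 403.1 CPM in CWFP, or 1828 ± 673 against 376 ± 36.4 CPM (SD, n = 3 each). PWFC replicate 1 was the lowest of its group and still lay above all 3 CWFP libraries.

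Among the photopigments, *ninaE*, which encodes the major rhodopsin Rh1 of the outer photoreceptors (chromosome 3R, 19886255 to 19888206, minus strand, dm6), had 455, 741 and 1048 CPM in PWFC and 65.8, 67.1 and 60.4 CPM in CWFP. Its log2 fold change was 3.54 (SE 0.33, 95% CI 2.72 to 4.35) with the smallest adjusted p of the edgeR fit, 0.129, a DESeq2 adjusted p of 1.02e-15 and a log2 fold change of 3.56 without CWFP replicate 1. The CWFP libraries were close to each other, and the lowest PWFC library, replicate 1, lay well above them. *Rh3*, an ultraviolet opsin of inner photoreceptors, had 33.5, 31.9 and 42.0 CPM in PWFC and 8.14, 7.36 and 6.62 CPM in CWFP, a log2 fold change of 2.28 (SE 0.23). For *Rh4*, the other ultraviolet opsin, the values were 47.4, 51.0 and 73.2 CPM in PWFC and 8.64, 18.4 and 12.2 CPM in CWFP (log2 fold change 2.13). *Rh6*, the green-sensitive opsin, had 12.3, 17.8 and 26.4 CPM in PWFC and 1.71, 2.62 and 3.24 CPM in CWFP (2.89), and the blue-sensitive *Rh5* had a log2 fold change of 2.31. All of these opsins were separated between the groups. *Rh2*, the opsin of the ocelli, overlapped, at a log2 fold change of 0.92.

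The whole-fly RNA levels of genes that act downstream of the opsins differed among themselves. The light-activated channel *trp* (chromosome 3R, 29914521 to 29920289, minus strand) had 83.5, 89.8 and 111 CPM in PWFC and 15.4, 16.5 and 23.3 CPM in CWFP, a log2 fold change of 2.36 (SE 0.24). Its partner *trpl* had 91.2, 104 and 146 CPM in PWFC and 25.2, 13.4 and 32.1 CPM in CWFP (2.27). *Gbeta76C*, the G protein beta subunit of photoreceptors, had 9.67, 17.7 and 29.4 CPM in PWFC and 2.20, 2.86 and 2.39 CPM in CWFP (2.92). The channels and the G protein subunit were thus separated between the groups in the same way as the opsins. *norpA*, the phospholipase C between them, was not: it had 72.2, 123 and 109 CPM in PWFC and 92.3, 46.5 and 57.1 CPM in CWFP. Only CWFP replicate 1 lay above the lowest PWFC library, and the log2 fold change of *norpA* was 0.63 (0.98 without CWFP replicate 1). On day 7 *norpA* had means of 96.9 CPM in PD and 104 CPM in CTRL, whereas *ninaE* had 2719 and 1593 CPM. The part of tissues other than the eye in these levels was not tested. The lipid recycling genes *rdgA*, a diacylglycerol kinase, and *rdgB*, a phosphatidylinositol transfer protein, had log2 fold changes of 0.50 and 0.08.

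Genes that end or scaffold the response were again separated. *Arr1*, an arrestin, had 50, 183 and 266 CPM in PWFC and 4.5, 9.7 and 11.6 CPM in CWFP, the largest log2 fold change of the list at 4.27 (3.98 without CWFP replicate 1). *Arr2*, the major arrestin of the fly eye, had 138, 287 and 385 CPM in PWFC and 39.1, 42.7 and 53.4 CPM in CWFP (2.58). PWFC replicate 1 was the lowest PWFC library for both arrestins. The myosin III kinase *ninaC* had 29.4, 54.0 and 81.3 CPM in PWFC and 5.76, 7.13 and 9.998 CPM in CWFP (2.85), the eye protein kinase C *inaC* a log2 fold change of 3.09, the scaffold *inaD* one of 2.38 and the rhodopsin phosphatase *rdgC* one of 0.97. *inaD* shares exon sequence with *RpL23* on the opposite strand, so its reads may not all be its own. Outside the list, the photoreceptor adhesion protein chaoptin (*chp*) had 17.1, 37.1 and 54.6 CPM in PWFC and 3.51, 4.45 and 4.41 CPM in CWFP (3.13). The list member *ninaA*, a chaperone of Rh1, had 0 counts in all 18 libraries and was not tested.

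**Figure D1:**
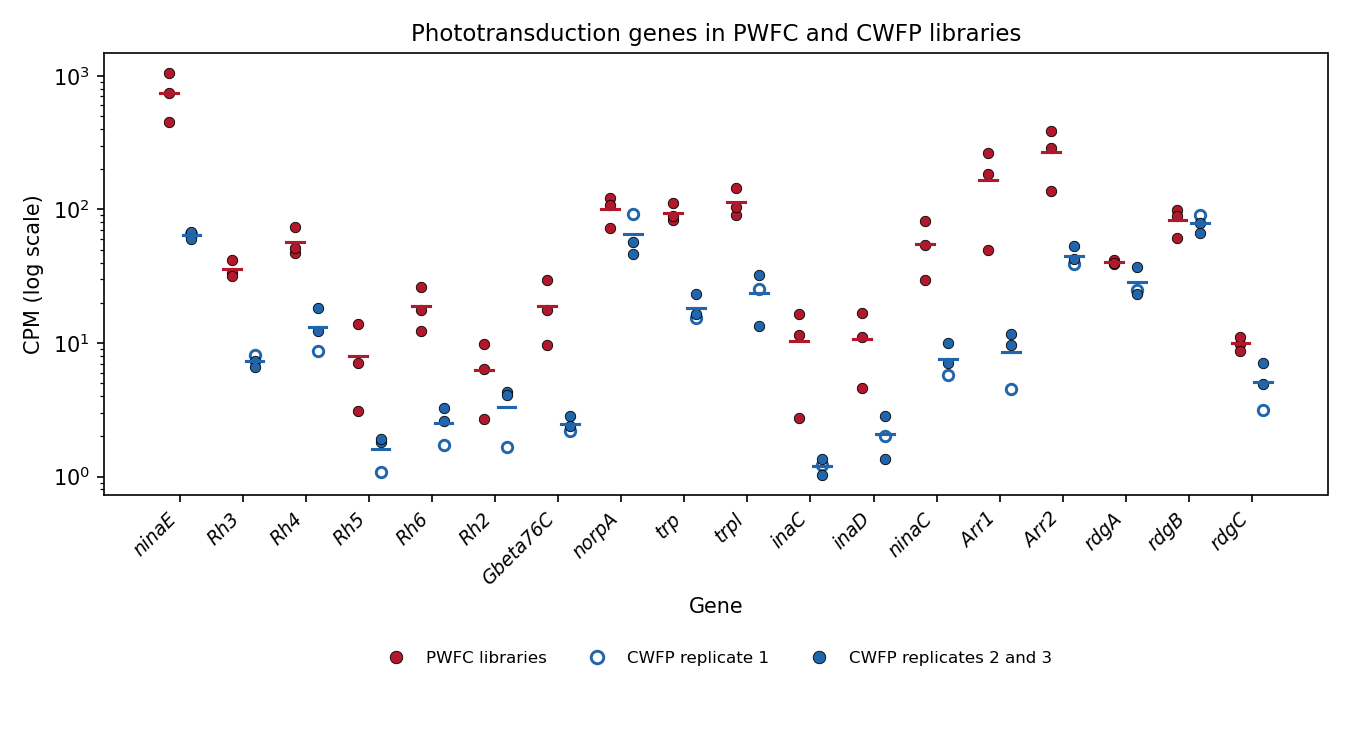
CPM on a log scale of 17 phototransduction genes and *Gbeta76C* in each library of PWFC (red, left of each gene) and CWFP (blue, right of each gene); bars are group means and the open circle is CWFP replicate 1. For *ninaE* the PWFC libraries lie at 455 to 1048 CPM and the CWFP libraries at 60.4 to 67.1 CPM, and for *Rh2*, *norpA* and *rdgB* the groups overlap.

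Markers of other tissues were less clearly separated than these genes. The summed eye markers were 798, 1423 and 1918 CPM in PWFC and 217, 183 and 206 CPM in CWFP. These markers, *ninaE*, *Arr1*, *Arr2*, *norpA* and *trp*, are genes already described above, so their sum repeats that result. The summed neuronal markers *elav*, *nSyb*, *Syt1* and *brp* were 103, 74.8 and 103 CPM in PWFC and 28.3, 49.4 and 73.6 CPM in CWFP, so that the neuronal sums were separated by a narrower gap. *nSyb*, the neuronal synaptobrevin, had 47.8, 37.4 and 53.9 CPM in PWFC and 10.5, 23.2 and 26.2 CPM in CWFP (log2 fold change 1.22). It was the only one of these neuronal markers that was separated. *elav*, *Syt1* and *brp* overlapped, and *brp* was highest in CWFP replicate 3, at 13.6 CPM. The gap between the neuronal sums, 74.8 against 73.6 CPM at its narrowest, thus rested on *nSyb*. Summed muscle markers overlapped, with 780, 765 and 704 CPM in PWFC and 369, 512 and 863 CPM in CWFP. The share of heads or eyes in each extract was not given in the sources used here, and its part in the result was not tested.

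The level of the phototransduction list in the other groups placed CWFP at the low end. PWOFC libraries had 1035, 455.6 and 1234 CPM and CWOFP libraries 953.9, 376.4 and 384.7 CPM, while on day 7 the rotenone-fed PD flies had 5675, 4806 and 4841 CPM and CTRL flies 2996, 3411 and 2746 CPM. The no-transfer groups overlapped, and their median log2 fold change was 0.34 over the list. For *ninaE* the values were 351, 71.6 and 462 CPM in PWOFC and 289, 62.8 and 45.8 CPM in CWOFP. The difference between the recipient pair and the no-transfer pair had a median of 2.15 over the list, with 10 of 17 genes at an unadjusted p below 0.05 against 303 of 12707 genes (2.38%), and no gene passed adjustment (smallest adjusted p 1 in edgeR). Levels of other groups were scaled over all 18 libraries, those of PWFC and CWFP over their own 6.

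**Figure D2:**
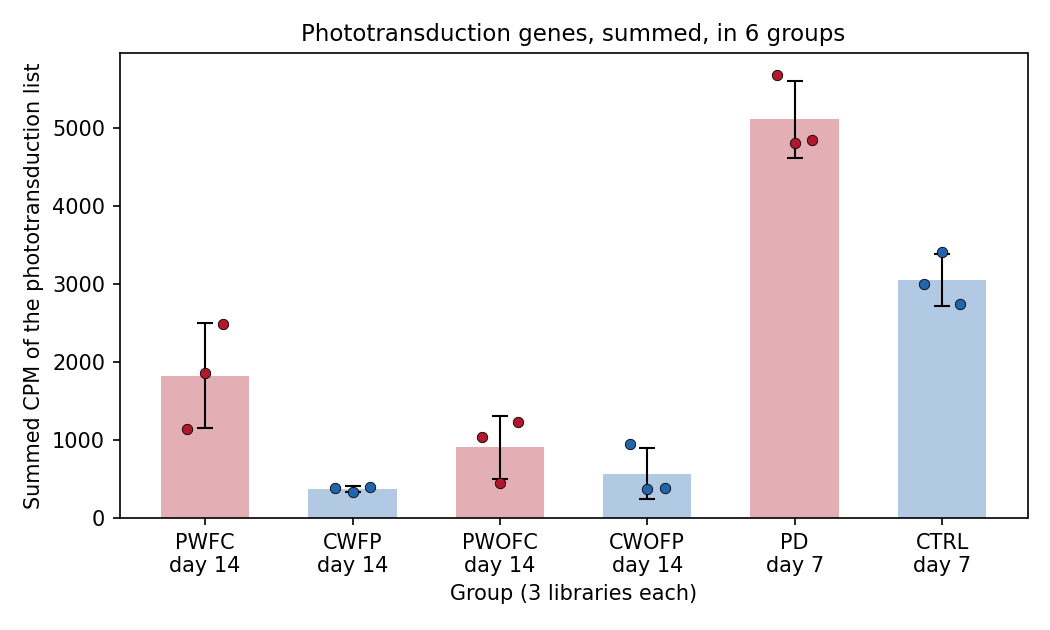
Summed CPM of the phototransduction list by group, with the recipient pair PWFC and CWFP on the left, the no-transfer pair PWOFC and CWOFP in the middle and the day 7 pair PD and CTRL on the right; points are libraries, bars the mean and error bars the SD of 3 libraries. PWFC lies at 1828 ± 673 CPM and CWFP at 376 ± 36.4 CPM, while the libraries of PWOFC and CWOFP overlap.

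The 20 genes with the smallest edgeR p over the 6 libraries, among those beyond a log2 fold change of 1 and separated between the groups, were all higher in PWFC. They were taken from 187 such genes, 140 higher and 47 lower, and 8 of the 20 belong to the phototransduction list. None passed adjustment in edgeR, where their adjusted p lay between 0.129 and 0.515, and DESeq2 called all 20 with and without CWFP replicate 1. Without that library their log2 fold changes lay between 1.08 (*Sodh1*) and 4.99 (*CG9988*), against 1.11 and 4.91 with it. Beside the eye genes, 3 genes without a described role here stood out by size. *CG34220* had 2378, 2220 and 2538 CPM in PWFC and 73.2, 169 and 36.0 CPM in CWFP (log2 fold change 4.68, SE 0.61), *CG3906* had 265, 186 and 328 CPM against 21.4, 19.0 and 9.62 CPM in CWFP (3.96), and *CG43673* had 34.0, 56.4 and 70.1 CPM against 1.08, 2.16 and 2.49 CPM in CWFP (4.81, SE 0.47). Each of them was separated between the groups by a factor that exceeded the spread within either. In PWOFC and CWOFP the same direction was seen for *CG34220*, with 1772, 1841 and 1638 CPM in PWOFC and 327.5, 16.6 and 150.6 CPM in CWOFP.

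Smaller but tight differences were found for 3 further genes of these 20. *Sodh1*, a sorbitol dehydrogenase, had 184, 239 and 222 CPM in PWFC and 92.5, 103 and 103 CPM in CWFP (log2 fold change 1.11). *bnb* had 58.8, 48.3 and 48.0 CPM in PWFC and 22.4, 20.2 and 22.8 CPM in CWFP (1.25). *CtsL3*, a cathepsin L-like cysteine protease (chromosome 3R, 6025826 to 6027238, minus strand), had 13.7, 13.9 and 15.2 CPM in PWFC and 2.34, 3.33 and 3.52 CPM in CWFP (2.21). *CtsL3* was the gene called with and without CWFP replicate 1 when the 4 groups of day 14 were fitted together, where 3 of 12707 genes (0.0236%) were called, the others being *CG43673* and *CG18179*. Without a transfer *CtsL3* had 6.37, 4.71 and 6.62 CPM in PWOFC and 3.75, 3.42 and 3.66 CPM in CWOFP. Reads of *CG9988* (4.91) and *CG6839* (4.74), also among the 20, cannot be told from those of genes on the opposite strand that share exon sequence, since strand use in counting is not given in the sources used here.

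Digestive serine proteases were more abundant in PWFC as a family, and in the edgeR fit of the 6 libraries single members passed only the unadjusted threshold. Of 16 Jonah proteases tested, 12 were higher in PWFC with a median log2 fold change of 0.56 (0.78 without CWFP replicate 1), 6 had an unadjusted p below 0.05 (against 1.52% of all genes on this side) and 3 were separated (18.8%, against 3.59% of all genes). Their summed level was 15060, 16950 and 18070 CPM in PWFC and 7831, 9881 and 6350 CPM in CWFP, so the sums of the groups did not overlap. *Jon65Aiv* had 7922, 6039 and 7450 CPM in PWFC and 3070, 4606 and 2306 CPM in CWFP (1.10), and *Jon65Aiii* had 4380, 3846 and 4545 CPM against 1934, 2755 and 1533 CPM in CWFP (1.04). *Jon25Bi* had 158, 350 and 400 CPM in PWFC and 132, 22.4 and 5.02 CPM in CWFP, where CWFP replicate 1 was the highest of its group. Its log2 fold change was 2.51, and 4.47 without that library. The near-identical *Jon99Cii* and *Jon99Ciii*, whose reads the counting may divide arbitrarily, had log2 fold changes of 1.36 and 1.26 with overlapping libraries.

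Of 17 trypsins and related proteases, 11 were higher with a median of 0.54 (0.59 without CWFP replicate 1), 7 had an unadjusted p below 0.05 (against 1.52% of all genes), 5 were separated (29.4%, against 3.59%) and DESeq2 called 2 (against 0.329%). *betaTry* had 1789, 2181 and 2637 CPM in PWFC and 1077, 1188 and 864 CPM in CWFP (log2 fold change 1.08), *alphaTry* had a log2 fold change of 0.69 and *yip7*, a further midgut protease, one of 0.89. *CG18180* had 785, 1120 and 1220 CPM in PWFC and 157, 309 and 147 CPM in CWFP (2.35). Its neighbour and near copy *CG18179* had 54.4, 105 and 88.5 CPM in PWFC and 7.20, 12.9 and 3.66 CPM in CWFP (3.38), while in the no-transfer pair the log2 fold changes of these genes were 3.48 and 5.57. Both were separated between the recipient groups. In the no-transfer pair the summed Jonah level was 12150, 12280 and 7371 CPM in PWOFC and 3192, 3855 and 3059 CPM in CWOFP, a separation in the same direction as between PWFC and CWFP. The summed midgut markers were 5285, 5893 and 7297 CPM in PWFC and 3175, 4269 and 3065 CPM in CWFP. These markers, *Jon65Ai*, *Jon99Ci*, *betaTry* and *alphaTry*, belong to the same protease families, so their sum is no separate result.

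Enzymes of carbohydrate digestion did not move together. Of 14 carbohydrases, 12 were lower in PWFC with a median log2 fold change of -0.36 (-0.39 without CWFP replicate 1), and the 2 higher ones were the amylases, which were also the only ones at an unadjusted p below 0.05. *Amy-p* had 1549, 733 and 1052 CPM in PWFC and 182, 487 and 173 CPM in CWFP (1.98), and its near copy *Amy-d* had 379, 259 and 357 CPM against 47.8, 111 and 53.7 CPM in CWFP (2.23, DESeq2 adjusted p 0.000127). The starch-splitting amylases were separated between the groups, whereas *Mal-A1*, a maltase, had a log2 fold change of -0.48. Among 8 peritrophic and mucin genes, 6 were higher with a median of 0.31 (0.20 without CWFP replicate 1). *Muc68D*, a mucin-like gene, had 587, 417 and 557 CPM in PWFC and 56.8, 114 and 29.2 CPM in CWFP (2.96) and was called by DESeq2, while *Mur18B* had a log2 fold change of -0.23. Of 17 lipases, 7 were higher and 10 lower, and the lipase *CG6295* had 123, 429 and 453 CPM in PWFC and 86.2, 54.0 and 35.2 CPM in CWFP (2.52). The 6 lysosomal alpha-mannosidases of the LMan family had a median of 0.15 (0.0088 without CWFP replicate 1), with none at an unadjusted p below 0.05. In the no-transfer pair their median was 2.90, and the difference between the pairs had a median of -2.65, with 4 of 6 genes at an unadjusted p below 0.05 (against 2.38% of all genes) and an adjusted p of 1 in edgeR.

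**Figure D3:**
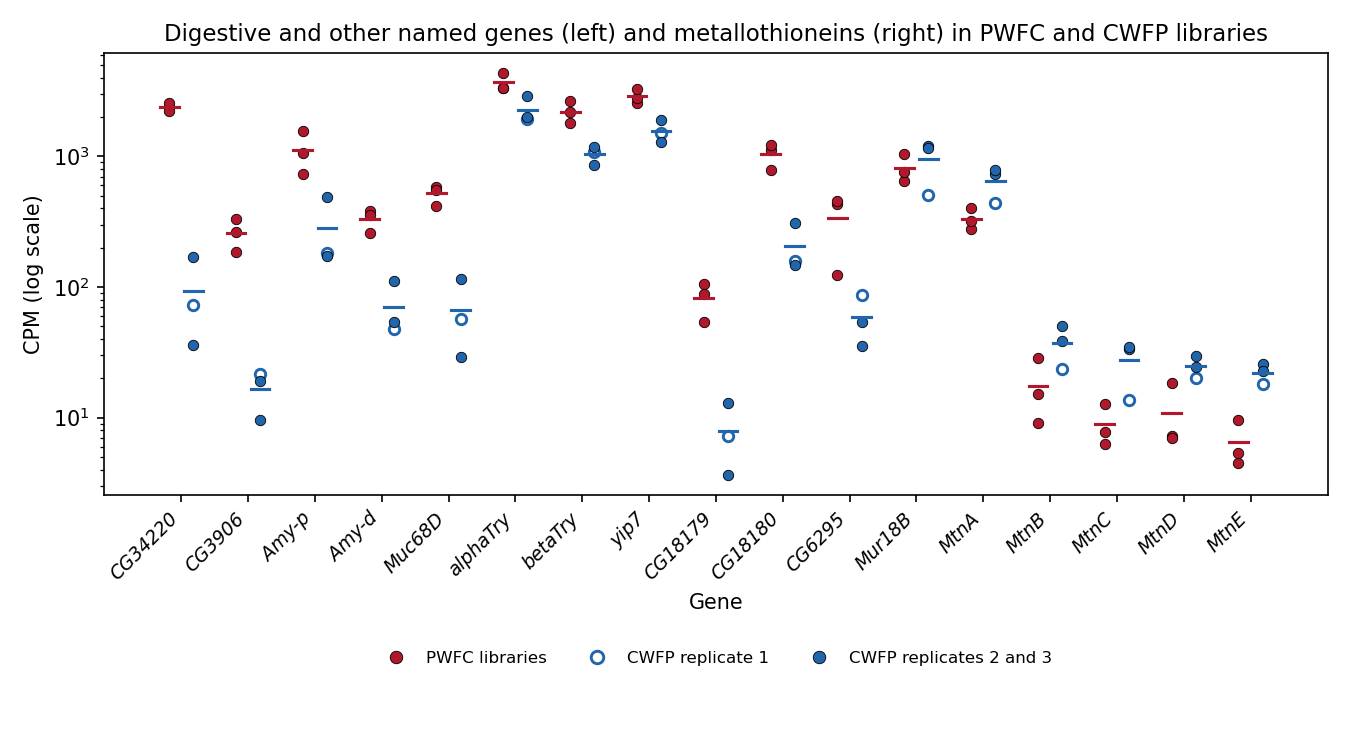
CPM on a log scale of digestive and other named genes (left) and metallothioneins (right) in PWFC (red, left of each gene) and CWFP (blue, right of each gene); bars are group means and the open circle is CWFP replicate 1. *CG34220* lies at 2220 to 2538 CPM in PWFC and 36.0 to 169 CPM in CWFP, and the 5 metallothioneins have lower means in PWFC.

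Metallothioneins were lower in PWFC. All 5 *Mtn* genes had negative log2 fold changes, and 4 of them had an unadjusted p below 0.05 (against 0.931% of all genes on this side). In 4 every PWFC library lay below every CWFP library (66.7% of the 6 genes tested with *MTF-1*, against 3.55% of all genes). The median over the 6 genes was -1.14, and -1.32 without CWFP replicate 1. *MtnE* (chromosome 3R, 20534021 to 20534704, minus strand) had 9.53, 4.53 and 5.38 CPM in PWFC and 17.99, 25.7 and 22.6 CPM in CWFP, a log2 fold change of -1.77 (SE 0.37) and a DESeq2 adjusted p of 0.00589. It was called by DESeq2 but not by edgeR. Without CWFP replicate 1 the log2 fold changes of the 5 genes lay between -1.94 (*MtnC*) and -1.18 (*MtnA*). *MtnC* had 12.6, 7.79 and 6.26 CPM in PWFC and 13.7, 33.8 and 34.9 CPM in CWFP (-1.63), and *MtnD* had 18.3, 7.28 and 7.00 CPM against 19.9, 24.2 and 29.7 CPM in CWFP (-1.18). *MtnA* had 401, 276 and 320 CPM in PWFC and 438, 736 and 780 CPM in CWFP (-0.97). In *MtnA* and *MtnC*, PWFC replicate 1 and CWFP replicate 1 lay close to each other, and *MtnB* (28.4, 15.1 and 9.04 CPM in PWFC, 23.8, 38.3 and 50.5 CPM in CWFP, -1.10) overlapped through the same libraries. *MTF-1* itself had a log2 fold change of 0.01, whose sign changed with the scaling. In the no-transfer pair the median was -1.30, and the difference between the pairs had a median of 0.29 with no gene at an unadjusted p below 0.05. The other gene that DESeq2 called lower was *CG42656*, with 2.14, 2.14 and 2.13 CPM in PWFC and 4.77, 6.001 and 6.29 CPM in CWFP (-1.41).

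Other stress and detoxification genes were less uniform. Of 34 detoxification genes, 24 were lower in PWFC with a median log2 fold change of -0.20 (-0.32 without CWFP replicate 1), 1 at an unadjusted p below 0.05. That gene, the cytochrome P450 *Cyp6a23*, had 19.0, 27.5 and 25.3 CPM in PWFC and 37.4, 61.2 and 87.2 CPM in CWFP (-1.37). Of 16 heat shock genes, 12 were lower with a median of -0.22 (-0.47 without CWFP replicate 1), among them the small heat shock protein *Hsp23*, with 30.6, 20.1 and 18.9 CPM in PWFC and 37.5, 41.6 and 60.2 CPM in CWFP (-1.001). Both named genes were separated between the groups. Of 11 chaperones of the endoplasmic reticulum, 10 were higher, with a median of 0.12 (0.25 without CWFP replicate 1) and 4 separated (36.4%, against 3.59% of all genes), among them the protein disulfide isomerase *Pdi* with 862, 997 and 963 CPM in PWFC and 724, 845 and 696 CPM in CWFP (0.32). The 15 antioxidant genes divided into 7 higher and 8 lower, with a median of -0.08 in both settings.

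Immune effectors showed no common direction beyond the spread between libraries. Of 16 antimicrobial peptide genes, 10 were higher in PWFC with a median of 0.15 (0.16 without CWFP replicate 1) and none at an unadjusted p below 0.05, but without PWFC replicate 1 the median was -1.01. Of 12 bomanins, short peptides induced through the Toll pathway, 8 were higher with a median of 0.45 (0.16 without CWFP replicate 1 and -0.096 without PWFC replicate 1), while *BomS6* was lower in every PWFC library, at 16.1, 10.8 and 16.2 CPM against 18.8, 38.8 and 31.2 CPM in CWFP (-1.04). The 4 Turandot genes with enough counts to be tested, of 8 in the list, encode humoral stress factors and were all higher with a median of 2.31 (1.92 without CWFP replicate 1 and 0.58 without PWFC replicate 3) and none at an unadjusted p below 0.05. *TotA* had 103, 34.3 and 386 CPM in PWFC and 4.99, 56.0 and 54.3 CPM in CWFP, so the median rested on widely scattered and overlapping libraries. Of 5 lysozymes tested, of 7 in the list, which digest bacterial cell walls, 4 were higher with a median of 1.93 (2.07 without CWFP replicate 1), but single members went both ways. *LysX* had 19.9, 4.53 and 4.68 CPM in PWFC and 35.4, 41.4 and 57.5 CPM in CWFP (-2.20), whereas *LysP* had 79, 31.3 and 44.7 CPM in PWFC and 14.6, 28.3 and 19.4 CPM in CWFP (1.32). *LysB* had 0.857, 149 and 60.1 CPM in PWFC and 0.99, 0.656 and 1.78 CPM in CWFP, where PWFC replicate 1 lay with CWFP. *LysB* is nearly identical to its neighbours in the same cluster, so its reads are uncertain.

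Yolk protein genes, transcribed in the fat body and follicle cells of females, were higher in PWFC. All 4 genes of the list, the yolk proteins *Yp1*, *Yp2* and *Yp3* and the female-specific satiety gene *fit*, had an unadjusted p below 0.05 (against 1.52% of all genes on this side). Of the 4, 3 were separated (75%, against 3.59% of all genes), and the median log2 fold change was 1.47, and 1.81 without CWFP replicate 1. The summed level was 14790, 27860 and 29120 CPM in PWFC and 12670, 9489 and 6379 CPM in CWFP. *Yp1* had 4039, 6346 and 6416 CPM in PWFC and 2984, 2131 and 1579 CPM in CWFP (1.33), and *fit* had 23.2, 74.9 and 93.3 CPM in PWFC and 16.1, 12.6 and 6.38 CPM in CWFP (2.45). Without CWFP replicate 1 these log2 fold changes were 1.61 and 2.76. PWFC replicate 1 was the lowest and CWFP replicate 1 the highest of its group for both. The log2 fold changes of *Yp2* and *Yp3* were 1.16 and 1.61. In the no-transfer pair the median was 1.53, with *Yp1* at 5643, 5900 and 4659 CPM in PWOFC and 2373, 2899 and 1420 CPM in CWOFP.

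Eggshell genes depended on 2 CWFP libraries. All 10 chorion genes were higher in PWFC with a median log2 fold change of 1.16, none at an unadjusted p below 0.05, and the median was 0.58 without CWFP replicate 3 and 2.43 without CWFP replicate 1, in the last case with 4 genes at an unadjusted p below 0.05 (against 5.06% of all genes on this side in that fit). *Cp38*, expressed earlier in eggshell formation, had 1405, 3882 and 2602 CPM in PWFC and 1437, 1495 and 0.0939 CPM in CWFP, so that 1 CWFP library was nearly devoid of it, at 2 counts. *Cp36* had 1184, 2868 and 1848 CPM in PWFC and 1015, 1534 and 0.329 CPM in CWFP. *Cp15* and *Cp18*, expressed later in eggshell formation, were low in 2 CWFP libraries. *Cp15* had 890, 1302 and 1597 CPM in PWFC and 2103, 8.11 and 3.47 CPM in CWFP, and *Cp18* had 851, 1491 and 888 CPM in PWFC and 582, 4.08 and 0.986 CPM in CWFP. Only *Cp18* was separated between the groups. The log2 fold change of *Cp18* without CWFP replicate 1 was 8.74 with an adjusted p of 0.0872 in edgeR, equal to the smallest of that fit. Of 9 vitelline membrane genes, 8 were higher with a median of 0.55 (0.71 without CWFP replicate 1), and *Vm26Aa* had 1662, 2402 and 2230 CPM in PWFC and 1764, 2186 and 652 CPM in CWFP. The 14 genes of the ovarian germline had a median of -0.02 with all 6 libraries and 0.49 without CWFP replicate 1, 6 and 11 of them higher.

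Genes of the male tract pointed the other way and differed with CWFP replicate 1. All 25 accessory gland genes were lower in PWFC at a median log2 fold change of -1.32, none at an unadjusted p below 0.05. Without CWFP replicate 1 the median was -1.86 with 19 genes at an unadjusted p below 0.05 (against 12.2% of all genes on this side in that fit). Their sums were 1385, 587.4 and 447 CPM in PWFC and 81.6, 2215 and 2710 CPM in CWFP. All 19 testis genes were lower as well, at a median of -1.13, and -1.63 without CWFP replicate 1, where 11 had an unadjusted p below 0.05. Low levels of these same genes set CWFP replicate 1 apart, so leaving it out could only lower their fold changes. The counts without it are therefore no evidence of a difference. The sex peptide *SP*, a seminal protein that alters female behaviour after mating, had 2.05, 2.39 and 1.44 CPM in PWFC and 0.54, 18.4 and 13.6 CPM in CWFP (-2.47, and -3.02 without CWFP replicate 1), and *Acp36DE*, another seminal protein, turned its direction when CWFP replicate 3 was left out. CWFP replicate 1 lay below all PWFC libraries for these sums and the other CWFP libraries above them. The *roX* RNAs summed to 109.7, 25.1 and 39.6 CPM in PWFC and 14.9, 86.8 and 100.3 CPM in CWFP, overlapping through PWFC replicate 1 and CWFP replicate 1.

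**Figure D4:**
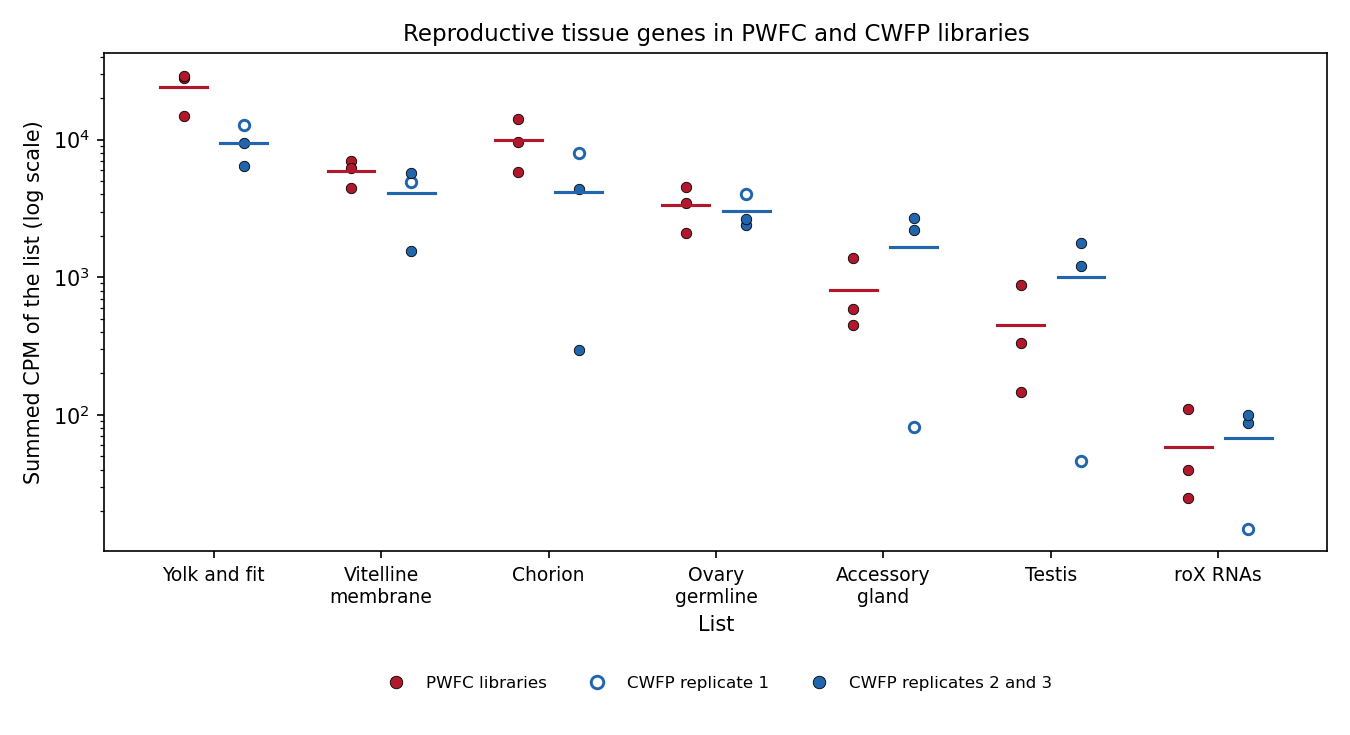
Summed CPM on a log scale of female and male reproductive lists and the *roX* RNAs in PWFC (red, left) and CWFP (blue, right); bars are group means and the open circle is CWFP replicate 1. The accessory gland sums of PWFC are 447 to 1385 CPM, between the 81.6 CPM of CWFP replicate 1 and the 2215 and 2710 CPM of CWFP replicates 2 and 3.

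Because these sums differed so much between libraries, the fit was repeated with each of them as a covariate, an alternative chosen after seeing the data. With the summed accessory gland level edgeR called 24 of 12240 genes, 23 higher and 1, *MtnC*, lower in PWFC, and with the summed testis level 33 of 12240 genes, 29 higher and 4 lower, namely *MtnC*, *MtnE*, *Mst87F* and *Ser8*, named after their values were seen. *Mst87F* is itself a testis gene, so its call beside a covariate of summed testis genes is no separate result. In each of these fits 5 of the 17 phototransduction genes tested were among the calls. With the summed *roX* level it called none, with a smallest adjusted p of 0.0537 and 1193 of 12240 genes at an unadjusted p below 0.05. The median of the phototransduction list was 2.30 to 2.34 over the 3 fits, and that of the metallothionein list -1.17 to -1.08.

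Cytoplasmic ribosomal protein genes were lower in PWFC in nearly every case, by amounts that varied. Of 89 tested, 88 were lower (against 56.7% of all genes), by up to -1.50 on the log2 scale and with a median log2 fold change of -0.33 (-0.34 without CWFP replicate 1). An unadjusted p below 0.05 was found for 33 (against 0.931% of all genes on this side). Without CWFP replicate 1 it was found for 23 of 91 (against 12.2% of all genes on this side in that fit), a smaller excess. In 63 of the 89 (70.8%, against 3.55% of all genes) every PWFC library lay below every CWFP library. With scaling over all 18 libraries the number separated was 33, whereas it stayed at 14 for the phototransduction and at 4 for the metallothionein list. Their sum was 95160, 100900 and 102400 CPM in PWFC and 119900, 129200 and 113600 CPM in CWFP, or 99490 ± 3821 against 120900 ± 7848 CPM (SD, n = 3 each). *RpL29*, a protein of the large subunit, had 216, 211 and 215 CPM in PWFC and 310, 399 and 348 CPM in CWFP (-0.72). Without a transfer the median was -0.27. Of 72 mitochondrial ribosomal proteins, 61 were lower, with a median of -0.13 that became -0.01 without CWFP replicate 1.

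Nuclear genes of the respiratory chain, the target of rotenone among them, were mostly a little lower gene by gene, while their summed levels overlapped between the groups. Of 39 nuclear genes of complex I, 34 were lower in PWFC (against 56.7% of all genes) with a median log2 fold change of -0.18 (-0.24 without CWFP replicate 1), 1 at an unadjusted p below 0.05 and 7 separated (17.9%, against 3.55% of all genes), a number that was 5 with scaling over all 18 libraries. That gene, *ND-B12*, had 44.1, 39.6 and 42.9 CPM in PWFC and 48.9, 73.8 and 66.3 CPM in CWFP (-0.58). Of 38 nuclear genes of complexes III, IV and V, 27 were lower with a median of -0.42 (-0.52 without CWFP replicate 1 and -0.19 without CWFP replicate 3). Of these, 3 had an unadjusted p below 0.05 (against 0.931% of all genes on this side). Their summed level was 9848 ± 323 CPM in PWFC and 9875 ± 390 CPM in CWFP (SD, n = 3 each). That of complex I was 3850 ± 148 CPM in PWFC and 4098 ± 516 CPM in CWFP. The 12 protein genes of the mitochondrial genome that were tested had a median of -0.02 (-0.10 without CWFP replicate 1). The summed level of all 13 in the list did not overlap, with 31470, 32270 and 34820 CPM in PWFC and 23980, 28110 and 30600 CPM in CWFP. *mt:CoI*, a core subunit of cytochrome c oxidase, had 11350, 12750 and 12830 CPM in PWFC and 8409, 9102 and 11170 CPM in CWFP (0.36), whereas the mitochondrial ribosomal RNA took 4.47, 3.25 and 4.14% of the counts in PWFC and 5.22, 6.49 and 7.11% in CWFP.

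Genes of dopamine handling and of familial parkinsonism showed small differences. Of 9 dopamine genes, 8 were higher in PWFC with a median log2 fold change of 0.43 (0.23 without CWFP replicate 1), and *ple*, the tyrosine hydroxylase that sets the rate of dopamine synthesis, had 26.2, 20.5 and 23.7 CPM in PWFC and 15.3, 15.4 and 16.7 CPM in CWFP (0.57, SE 0.21, and 0.56 without CWFP replicate 1). It was separated and the only dopamine gene at an unadjusted p below 0.05. Without a transfer *ple* had 18.3, 22.3 and 23.5 CPM in PWOFC and 53.9, 15.1 and 59.9 CPM in CWOFP, and the difference between the pairs was 1.79, with an adjusted p of 1 in edgeR. CWOFP replicate 2 decided this call: without it the difference was 2.20 and passed adjustment (edgeR adjusted p 0.0363), together with the cuticle genes *Vajk3* and *Cpr62Bc*. The summed cuticle protein genes were 111.2, 116.9 and 127.2 CPM in PWOFC and 199.6, 80.9 and 367 CPM in CWOFP. *ple* also acts in tanning of the cuticle, and a link between its level and these sums was not tested. The 16 orthologues of parkinsonism genes had a median of 0.09 (0.16 without CWFP replicate 1) with 10 higher and none at an unadjusted p below 0.05. Of these, *park*, the fly parkin, had a log2 fold change of 0.18 and the ubiquitin ligase gene *Mul1* one of -0.33. The 23 genes that the study followed by RT-qPCR, chosen by it on these samples and so no independent evidence of a direction, had a median of 0.54 (0.37 without CWFP replicate 1), with 19 higher, 8 of them at an unadjusted p below 0.05 (against 1.52% of all genes) and 5 separated (21.7%, against 3.59%).

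**Figure D5:**
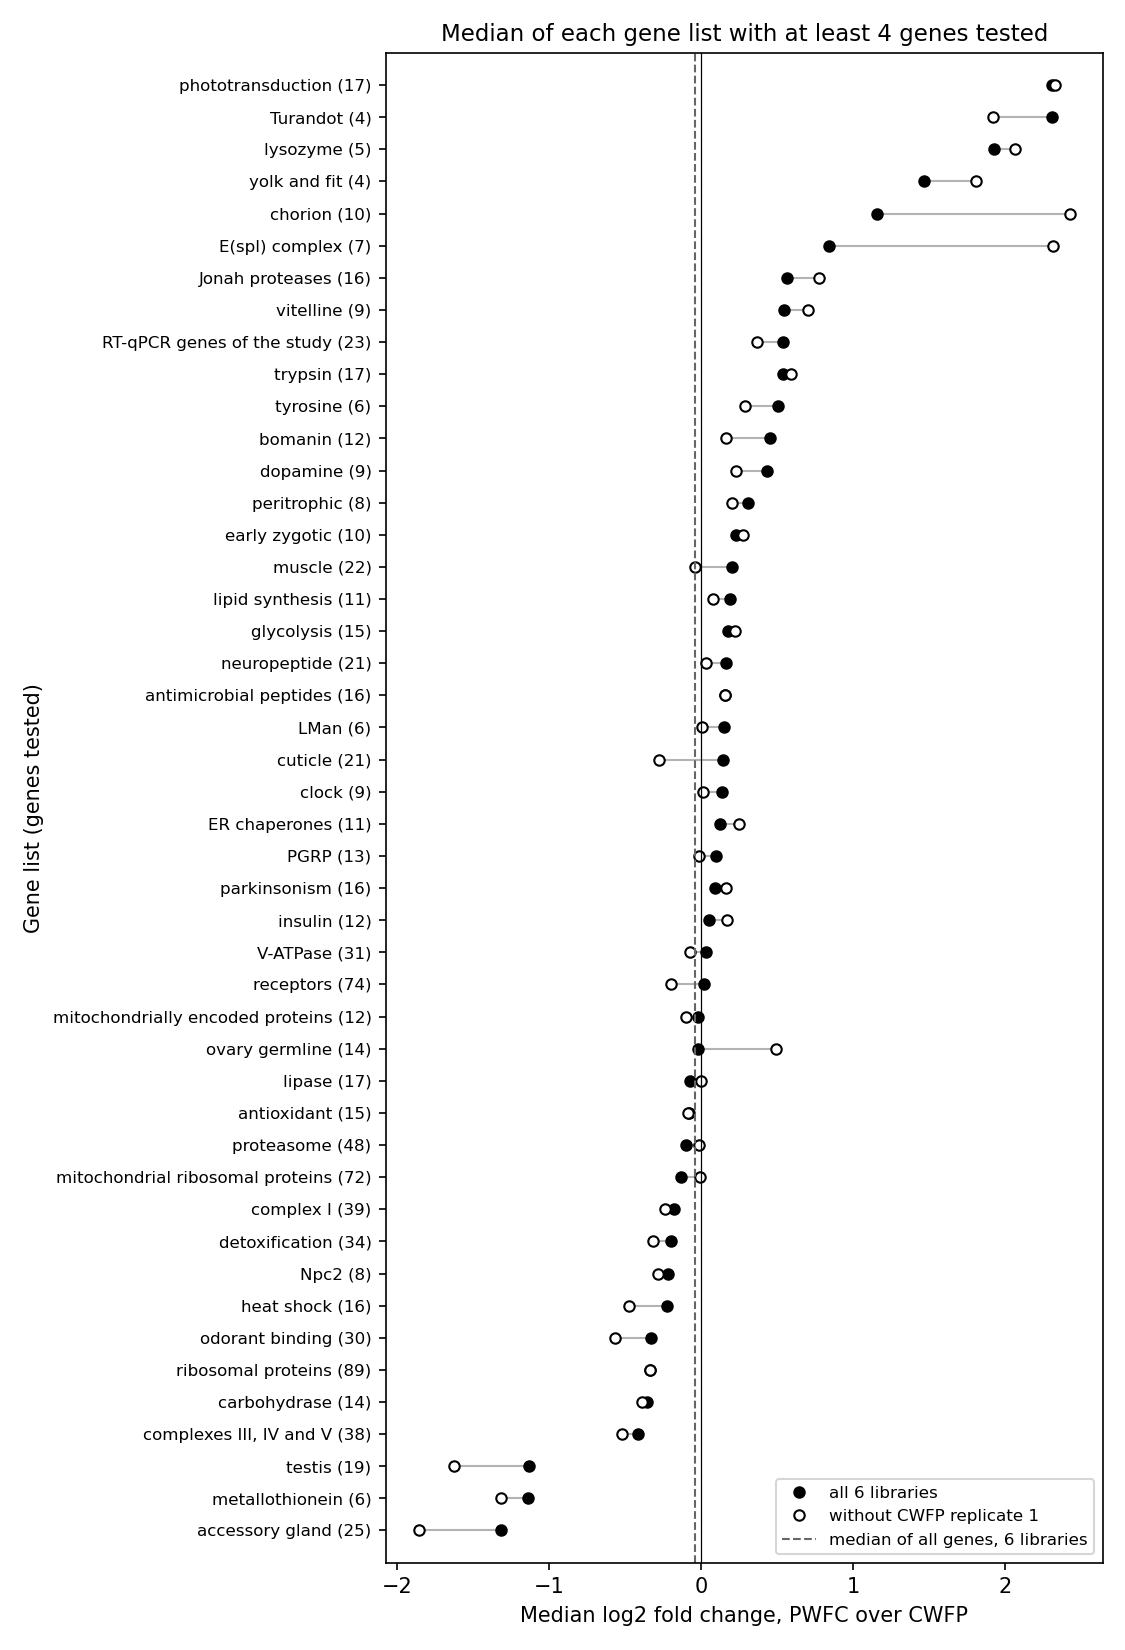
Median log2 fold change, PWFC over CWFP, of the 46 lists with at least 4 genes tested (the number of genes in parentheses), with all 6 libraries (filled) and without CWFP replicate 1 (open); the dashed line is the median of all genes. Phototransduction lies at 2.31 and 2.33 and accessory gland at -1.32 and -1.86.

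The recipient pair was last set against the no-transfer pair gene by gene. The test of the difference between the pairs called none of 12707 genes in edgeR (0%), with 303 (2.38%) at an unadjusted p below 0.05, of which 279 (2.20%) were more positive and 24 (0.189%) more negative in the recipient pair. Without CWFP replicate 1 it called none of 12956, with 668 (5.16%) at an unadjusted p below 0.05 and a smallest adjusted p of 0.793. DESeq2 called 1 gene, *CtsL3* (1.64, adjusted p 0.0162), and 13 genes without CWFP replicate 1. Among the named eye genes the difference was largest for *ninaE* at 2.61 and *Arr1* at 2.57, while *CG18179* lay at -2.13, with a larger log2 fold change in the no-transfer pair. The absence of a called gene does not show that the pairs acted alike.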

How the data were processed

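Whole adult flies were profiled by RNA-seq of polyadenylated RNA. Per the methods, reads were trimmed with cutadapt, aligned to the dm6 assembly with HISAT2 and counted per gene with featureCounts, whereas the submitters' processing notes name StringTie 1.3.1 and DESeq2 1.36.0. The authors deposited 1 table of raw counts per gene, 17611 identifiers by 18 libraries, without normalization. A further 6 of the 24 labelled samples were not analysed here. Names and positions were taken by gene identifier from the Ensembl annotation of BDGP6, the dm6 sequence, which matched 17556 identifiers. Strand use in counting is not given in the sources used here, and 4698 genes share exon sequence with a gene on the opposite strand. Among them are *inaD*, *Mal-A1*, *ND-B12* and *RpL29*.

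Groups were taken from the labels. edgeR 4.0.16 in R 4.3.3 (filterByExpr, TMM scaling, glmQLFit and glmQLFTest) was fitted to the 6 PWFC and CWFP libraries, and again without CWFP replicate 1. The 12 libraries of day 14 gave the test of the difference between the recipient and the no-transfer pair. P-values were Benjamini-Hochberg adjusted over all genes tested, and a call required an adjusted p below 0.05 and a log2 fold change beyond 1. CPM of the 6 libraries used the factors of their own fit, CPM of other groups those of all 18. Distances and components used log2 CPM with a prior count of 2 of the 500 most variable genes. The totals of 20097950 to 22958881 counts bound the precision of low genes, and replicates differed far beyond counting error. Named genes were the 20 with the smallest p in the fit of 6 libraries among genes separated between the groups and beyond a log2 fold change of 1 there, plus genes of the lists described. The members and the 48 gene lists were chosen with earlier results of these data known. DESeq2 1.42.0, limma 3.58.1 (voom with sample quality weights), other scalings and filters, a joint fit of 4 groups, a replicate block and leaving out each library were the alternatives. The scripts were tested on simulated counts. Figures were drawn with matplotlib 3.10.9.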

Additional observations from a re-analysis of the deposited data

How the results depend on the processing

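With all 6 libraries edgeR called no gene under the other scalings and filters, with the replicate block or without any single library, whereas DESeq2 called 54, voom 1153, the joint fit of 4 groups 3, and the fits with the accessory gland or testis sum as a covariate 24 and 33. Without CWFP replicate 1 DESeq2 called 451, voom 2673, the joint fit 1 and the fit without a filter on low counts 10. The replicate block gave 2934 in those 5 libraries, 342 higher and 2592 lower, with 1 residual degree of freedom, and no call in the other comparisons. Same-numbered libraries deviated in opposite ways from their group means (correlations of -0.76, -0.61 and -0.25). No label says that they were handled together, and whether they were paired was not tested. Leaving out a second library gave 0 to 2644 calls, the most without PWFC replicate 1, and where a lone CWFP library remained it was assumed to vary like PWFC. The 2 genes called without PWFC replicate 3 were *SPH93* and *Cp15*. For the difference between the pairs DESeq2 called 1 gene, and 13 without CWFP replicate 1, and leaving out a library gave 0 to 3, and 0 to 5 calls, the most without CWOFP replicate 2. The distance between minus within groups was -0.19 and ranged from -17 to 22.3 when a library was left out, turning positive without CWFP replicate 1, 2 or 3 (22.3, 13.1 and 5.52). Genes separated between the groups numbered 873, and 1123 to 5317 without a library, the most without CWFP replicate 1. Of 48 lists 30 had a median above 0, and 26 to 31 did without a library. List medians moved by more than the spread between replicates in 2 lists without CWFP replicate 1, 5 without CWFP replicate 2, 6 without PWFC replicate 1 and 1 without PWFC replicate 2.

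Among the 94 named genes DESeq2 called 30. *MTF-1* was at -3.295e-05 with RLE and -0.01272 with upper quartile scaling, and ranged from -0.08453 to 0.1231 when a library was left out. In the same fits *rdgB* ranged from -0.06054 to 0.2746, *Acp36DE* from -1.301 to 0.2243 and *roX1* from -1.038 to 0.2, and no other named gene turned its direction. The cause of these shifts was not tested.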

Other observations

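Some gene groups not described above differed among the libraries. Of 21 neuropeptide genes, 15 were higher in PWFC at a median log2 fold change of 0.17 (0.03 without CWFP replicate 1), and *Nplp1*, a neuropeptide precursor, had a log2 fold change of 1.11. Neurotransmitter receptor genes had a median of 0.02 over 74 genes, and -0.20 without CWFP replicate 1, where 52 of the 74 were lower. Of 9 clock and clock output genes, 5 were higher, and takeout (*to*), a feeding-related gene under clock control, was the one at an unadjusted p below 0.05, with a log2 fold change of 0.99. Of 30 odorant-binding protein genes, 21 were lower in PWFC with a median of -0.33 (-0.57 without CWFP replicate 1).

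Metabolic housekeeping groups showed small medians. Of 15 glycolytic genes, 13 were higher in PWFC at a median of 0.18 (log2, 0.22 without CWFP replicate 1) and none separated, and of 11 genes of lipid synthesis 8 were higher with a median of 0.19 (0.08). The 48 proteasome genes had a median of -0.10 (-0.01 without CWFP replicate 1) and the 31 V-ATPase genes one of 0.03 (-0.07). Of 6 genes of tyrosine breakdown, 5 were higher with a median of 0.51 (0.29), among them *Hpd*, 4-hydroxyphenylpyruvate dioxygenase, with a log2 fold change of 0.89. Of 22 muscle genes, 17 were higher with a median of 0.21, and without CWFP replicate 1 only 8 were, with a median of -0.04. In 7 genes of the E(spl) complex the median was 0.85, and without CWFP replicate 1, where 9 were tested, it was 2.32 with 7 higher and 3 at an unadjusted p below 0.05 (against 5.06% of all genes on this side in that fit). Without PWFC replicate 1 it was -0.43. With all 6 libraries none was separated, and DESeq2 called *BobA*, which was named after its values were seen.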
